A study of Mus musculus with 32 samples.

Results

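Intraflagellar transport (IFT) genes were examined in the frontal cortex (FCtx) of ethanol-treated and control mice. The genes were chosen by symbol, as every gene named Ift followed by a number on the array. This gave 10 genes with 20 probes, of 18138 genes and 25697 probes on the array. The family itself was selected on the values of Ift20 in the comparison of ethanol-treated mice with controls. The differences of its members in that comparison, and on the chips that make it up, are therefore a description. Where calls by limma across all probes are counted there, the choice had used the same values and nothing is read from the count. RNA of 32 female mice was measured, with 1 Illumina MouseRef-8 v2.0 array a mouse, 20 arrays of ethanol-treated mice and 12 of controls. All mice were C57BL/6J x FVB/NJ F1 hybrids by their labels, while the study's Methods describe reciprocal crosses of these strains, and the age at death is not given in the sources used here. Ethanol-treated mice had chosen between 20% ethanol and water in limited sessions in the dark over 20 days, and controls carried no ethanol treatment. The tissue was the dorsal part of a rostral coronal slice without olfactory bulbs, so each array holds the RNA of mixed cells, and fewer cells of a type cannot be told apart from less RNA per cell.

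IFT carries cargo along the microtubules of the cilium. IFT-B particles are moved towards the tip by kinesin-II, and IFT-A particles take part in the return to the base by cytoplasmic dynein 2. Most neurons and astrocytes carry a single primary cilium, a sensory projection known for Hedgehog signalling and for G protein-coupled receptors in its membrane, whereas ependymal cells carry many motile cilia. IFT20 is the IFT-B subunit that is also found at the Golgi, from where membrane proteins are sent to the cilium.

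The arrays lay on 4 chips of 8 positions each. Chips 1 and 2 held ethanol-treated mice, chip 4 held controls, and chip 3 held both, with the 4 ethanol-treated mice at odd positions (lettered A, C, E, G) and the 4 controls at even positions (lettered B, D, F, H). Treatment therefore coincided with chip on chips 1, 2 and 4 and with odd or even position on chip 3. The median signal of an array was 166 to 203 in ethanol-treated mice and 146 to 187 in controls, and control C66 was the dimmest, with 9480 probes detected. By chip, controls read 146 to 168 on chip 4 and 177 to 187 on chip 3, where ethanol-treated mice read 166 to 188. Markers of neurons passed the detection filter for 6 of 10 genes, of astrocytes for 9 of 10, of oligodendrocytes for 9 of 10 and of microglia for 9 of 10. Between ethanol-treated mice and controls 1 tested neuron gene was called, with a median difference of 0.09 over that list. For astrocytes it was 1 gene and 0.01, for oligodendrocytes 0 and -0.06, and for microglia 0 and -0.05. Of all tested genes 9.82% were called. Of 15 genes of ependymal cells and motile cilia, 10 were on the array and 2 passed (Rsph1 and Spag6), with a mean log2 level of 8.32 to 8.53 in ethanol-treated mice and 8.34 to 8.53 in controls, and neither was called. Of 10 choroid plexus genes, 8 were on the array and 1 passed, Aqp1, while Ttr did not. Of 8 olfactory bulb genes 6 passed, with a mean log2 level of 8.65 to 10.55 in ethanol-treated mice and 8.58 to 10.15 in controls and a median difference of 0.19, and the part of such tissue in the results was not tested.

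Ift20 had 3 probes, and they did not behave alike. Their sequences are shown because the results turn on which of them is read. The first probe below ends with the 5 letters that open the second, in capitals, but the annotation gives them no shared coordinate, and whether they overlap in a transcript was not settled. Of the last probe, the first 30 bases of 50 are shown.

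Ift20 ILMN_2671767: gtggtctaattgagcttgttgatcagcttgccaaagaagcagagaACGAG

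Ift20 ILMN_2847618: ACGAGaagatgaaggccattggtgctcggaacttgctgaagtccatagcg

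Ift20 ILMN_2592093: tgtgacaagcaactggactttcctctttcc

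The probe annotation names no genome build, and only 3 of the 19 member probes with coordinates lay within their gene's span in RefSeq's GRCm38.p6, so coordinates are those of the annotation alone. It places ILMN_2671767 on the plus strand at chr11:78352027-78352076 and ILMN_2592093 at chr11:78354819-78354868. ILMN_2847618 has 2 blocks there, chr11:78356228-78356240 and chr11:78357090-78357126, and so spans an exon junction. The start in the probe's own transcript record is 527 for ILMN_2671767, 573 for ILMN_2847618 and 256 for ILMN_2592093, and the first of these starts is counted in another version of the record than the others. ILMN_2592093 thus has the lowest position listed but lies between the others on the chromosome, and whether its bases are coding or untranslated is not given in the sources used here. No stretch of 20 bases of the 3 probes recurs in a probe of another gene on the array.

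Of the 20 member probes, 15 passed the detection filter, that is detection at p below 0.01 on 24 arrays or more, and they stand for 8 genes. All 3 probes of Ift57, an IFT-B subunit, were detected on 0 arrays, and the probe of Ift74, the partner of IFT81 in IFT-B, on 1 array. One of the 3 Ift140 probes, ILMN_3137478, was detected on 3 arrays. These 5 probes were not tested. The Ift80 probe was just inside the filter, with detection on 24 arrays, 18 of 20 of ethanol-treated mice and 6 of 12 of controls. The other tested probes were detected on all 32 arrays.

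In ethanol-treated mice the Ift20 probe ILMN_2592093 was lower than in controls, while the other Ift20 probes differed by -0.01 and -0.05 over all arrays. Its normalized log2 value ran from 10.20 over a median of 10.30 to 10.50 in the 20 ethanol-treated mice. In the 12 controls it ran from 10.45 over 10.60 to 10.71. Every ethanol-treated mouse lay below the control median, and 18 of 20 lay below the lowest control. The exceptions were mice A28 and A44 of chip 2, at 10.49 and 10.50, and 8 of 12 controls lay above the highest ethanol-treated mouse. The group means were 10.31 ± 0.08 (SD, n = 20) and 10.58 ± 0.10 (SD, n = 12), a log2 difference of -0.27 (SE 0.03), or 1.21-fold.

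**Figure D1:**
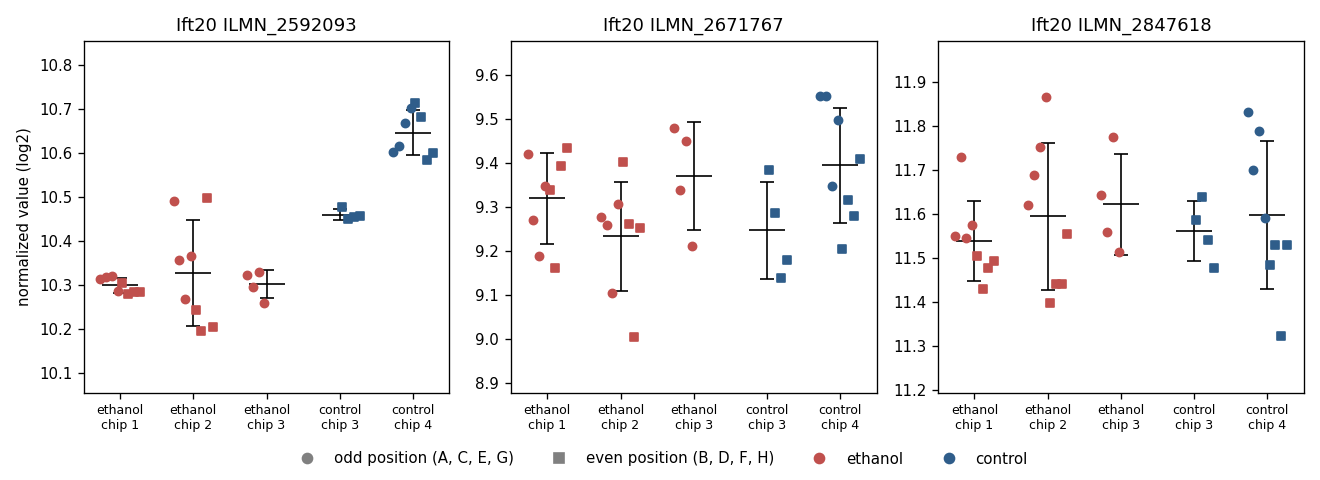
Normalized log2 values of the 3 Ift20 probes on each of the 32 arrays, by treatment and chip (columns), with circles for odd and squares for even positions. Each vertical axis spans 0.8 log2 units, and bars give mean ± SD. For ILMN_2592093 most ethanol-treated mice lie lowest. Mice A28 and A44 of chip 2, at 10.49 and 10.50, lie above the controls of chip 3 at 10.45 to 10.48. Controls of chip 4 lie at 10.58 to 10.71. For ILMN_2847618 odd positions lie above even ones on chips 1, 2 and 4.

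By chip, the values of ILMN_2592093 differed among the controls. The ethanol-treated mice averaged 10.30 ± 0.02 on chip 1 (SD, n = 8), 10.33 ± 0.12 on chip 2 (SD, n = 8) and 10.30 ± 0.03 on chip 3 (SD, n = 4). The 8 arrays of chip 1 all lay between 10.28 and 10.32, whereas those of chip 2 spread from 10.20 to 10.50. Controls averaged 10.46 ± 0.01 on chip 3 (SD, n = 4) and 10.65 ± 0.05 on chip 4 (SD, n = 8), without overlap between the 2 chips. How many of all tested probes separate the controls in this way was not counted, and nothing is read from it. At even positions the controls of chip 3 were lower than those of chip 4 by 0.19 (SE 0.06), which missed the threshold of a false discovery rate (FDR) below 1% (limma adjusted p = 0.059). Of all probes, 1.5% passed that threshold there, and 11.8% passed an FDR below 10%. Ethanol-treated mice at odd positions of chip 3 differed from those of chips 1 and 2 by -0.04 (SE 0.05, limma adjusted p = 0.876), with a 95% interval of -0.14 to 0.06.

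Chip 3 is the one chip with both treatments. ILMN_2592093 read 10.32 in A46, 10.30 in A47, 10.33 in A49 and 10.26 in A50. The controls of that chip read 10.48 in C52, 10.45 in C54, 10.45 in C55 and 10.46 in C56. All 4 ethanol-treated mice lay below the lowest control. How many of all tested probes separate in this way on chip 3 was not counted. Nothing is therefore read from such a separation, here or for the Ift probes below. The log2 difference was -0.16 (SE 0.05) on chip 3 and -0.33 (SE 0.04) between chips 1 and 2 and chip 4, where it was -0.31 at odd and -0.36 at even positions. With chip as a fixed block it was -0.16, carried by chip 3 alone. The probe was not among the 0.137% of all probes called there at an FDR below 1%.

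The other Ift20 probes showed no such separation. ILMN_2847618 ran from 11.40 over a median of 11.55 to 11.87 in ethanol-treated mice and from 11.32 over 11.56 to 11.83 in controls. The groups overlapped throughout, and their means of 11.58 ± 0.13 (SD, n = 20) and 11.59 ± 0.14 (SD, n = 12) differed by -0.01 (SE 0.05), with a 95% interval of -0.10 to 0.09. This probe also differed by -0.22 between even and odd positions of chips 1, 2 and 4, as given below. Odd positions made up more of the ethanol-treated than of the control arrays, because of chip 3. The difference of -0.01 is not adjusted for position, and the fit with chip and position together is given in the last section. ILMN_2671767 ran from 9.004 over 9.29 to 9.48 in ethanol-treated mice and from 9.14 over 9.33 to 9.55 in controls, a difference of -0.05 (SE 0.05). On chip 3 it was higher in ethanol-treated mice by 0.12 (SE 0.07), and between chips 1 and 2 and chip 4 it stood at -0.12 (SE 0.05), with -0.22 (SE 0.06) at odd and -0.02 (SE 0.07) at even positions. For ILMN_2847618 the latter comparison gave -0.06 (SE 0.06) at odd and 0.00 (SE 0.05) at even positions.

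Over all arrays, 1 of 15 member probes, ILMN_2592093, was called at an FDR below 1%, where 8.23% of all tested probes were called. The family was selected on this probe's gene in the same comparison, so the call was fixed by the choice. At an FDR below 10% there were 2 of 15, against 25.3% of all. The second was Ift80, detected on 18 of 20 arrays of ethanol-treated mice but 6 of 12 of controls. It passed the detection filter largely through the group where it read higher, so nothing is read from it. Differences were positive for 7 member probes and negative for 8, with a median of -0.01 for the members and 0.00 for all probes. For 14 of 15 member probes the difference was smaller than 0.1, as it was for 76.5% of all probes.

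**Figure D2:**
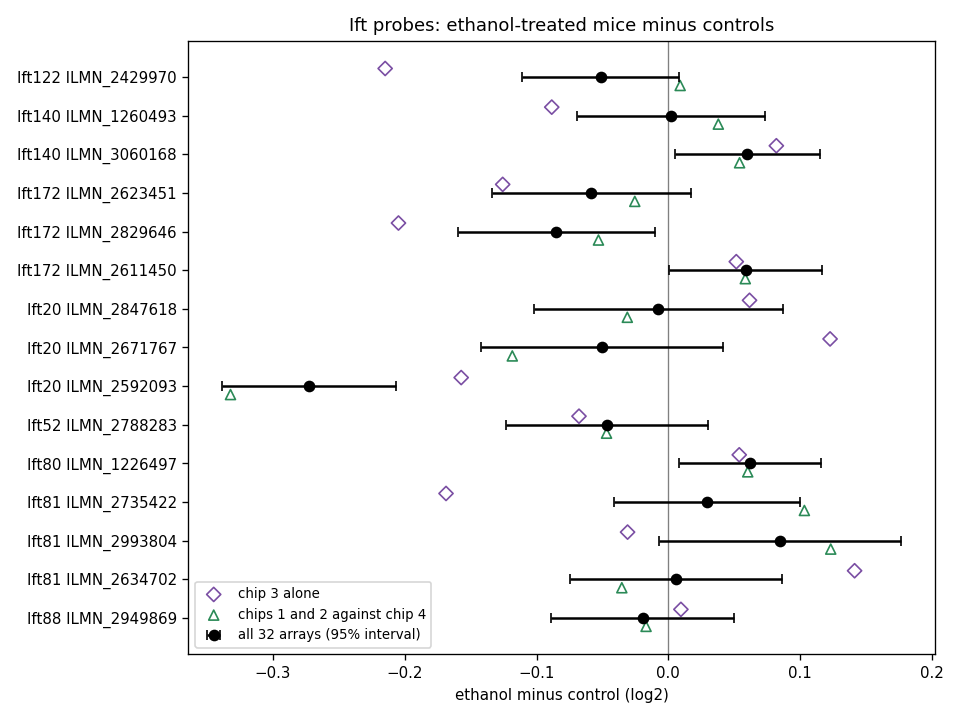
Log2 difference of ethanol-treated mice minus controls (horizontal axis) for the 15 tested Ift probes (rows). Black points with 95% intervals are over all 32 arrays, diamonds over chip 3 alone and triangles over chips 1 and 2 against chip 4. The probe ILMN_2592093 stands at -0.27 over all arrays, and the other 14 lie between -0.08 and 0.08.

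Among the members, the tested IFT-A subunits were Ift122 and Ift140. Ift122, a core subunit of retrograde particles, differed by -0.05 (SE 0.03) over all arrays. Its values ran from 8.14 over 8.31 to 8.41 in ethanol-treated mice and from 8.24 over 8.35 to 8.48 in controls, with wide overlap. On chip 3 the ethanol-treated mice read 8.26, 8.24, 8.14 and 8.19, and the controls 8.45, 8.48, 8.40 and 8.37. The groups did not overlap there, with a difference of -0.21 (SE 0.05), while chips 1 and 2 against chip 4 gave 0.01 (SE 0.03). Both tested probes of Ift140, another IFT-A subunit, were close to 0 or slightly higher in ethanol-treated mice, at 0.00 (SE 0.04) for ILMN_1260493 and 0.06 (SE 0.03) for ILMN_3060168. On chip 3 these stood at -0.09 and 0.08, and the 4 ethanol-treated mice lay below all controls for the first of them.

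Ift172, a peripheral IFT-B subunit, had 3 tested probes. A pair of them overlap by 18 bases, in capitals below, and are no independent measures.

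Ift172 ILMN_2623451: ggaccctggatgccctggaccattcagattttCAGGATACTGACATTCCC

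Ift172 ILMN_2829646: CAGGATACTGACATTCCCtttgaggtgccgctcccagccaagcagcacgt

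The overlapping pair differed in the same direction, by -0.06 (SE 0.04) for ILMN_2623451 and by -0.08 (SE 0.04) for ILMN_2829646. The third Ift172 probe, ILMN_2611450, differed by 0.06 (SE 0.03). For ILMN_2829646 the values ran from 8.48 over 8.60 to 8.82 in ethanol-treated mice and from 8.55 over 8.72 to 8.87 in controls, so most of both ranges was shared. On chip 3 all 4 ethanol-treated mice lay below the controls for both overlapping probes, with differences of -0.13 (SE 0.06) and -0.20 (SE 0.06).

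Of the IFT-B core, the tested members were Ift81, Ift52 and Ift88. Ift81, which binds tubulin together with IFT74, had 3 probes with differences of 0.03 (SE 0.03), 0.08 (SE 0.05) and 0.01 (SE 0.04), in the order ILMN_2735422, ILMN_2993804 and ILMN_2634702. On chip 3 the same probes stood at -0.17, -0.03 and 0.14, so the Ift81 probes did not share a direction there. The annotation places ILMN_2993804 at chr5:123000695-123000744 and ILMN_2634702 at chr5:123000731-123000780. These probes overlap and are no independent measures. For ILMN_2735422 the sign differed between chip 3 and chips 1 and 2 against chip 4, where it was 0.10 (SE 0.04), and all 4 ethanol-treated mice of chip 3 lay below its controls. Ift52, a scaffold of the IFT-B core, differed by -0.05 (SE 0.04), and its values ran from 9.20 to 9.68 in ethanol-treated mice and from 9.34 to 9.51 in controls. Ift88, the gene altered in the Oak Ridge polycystic kidney mouse, differed by -0.02 (SE 0.03), with ranges of 8.31 to 8.71 and 8.40 to 8.64.

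Ift80, a peripheral IFT-B subunit, was near the detection limit. Its values ran from 8.03 over 8.17 to 8.28 in ethanol-treated mice and from 7.98 over 8.10 to 8.26 in controls, and 18 of 20 and 6 of 12 arrays detected it. The difference was 0.06 (SE 0.03), 0.05 on chip 3 and 0.06 between chips 1 and 2 and chip 4.

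The counts on parts of the arrays rest on the same values and are likewise a description. On chip 3 alone, 0 of 15 member probes were called by limma at an FDR below 1%, where 2.92% of all probes were called, and 5 had an unadjusted p below 0.05. At an FDR below 10% there were 4, against 17.0% of all: the probes of Ift122, Ift172 (ILMN_2829646), Ift81 (ILMN_2735422) and Ift20 (ILMN_2592093). All 4 were lower in the ethanol-treated mice, which sat at odd positions. Between chips 1 and 2 and chip 4, ILMN_2592093 was the 1 member called at an FDR below 1%, where 11.8% of all probes were, on 24 of the same 32 arrays.

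Position on the chip was a measure that the choice of the family had not used. Treatment did not vary within chips 1, 2 and 4, so even positions were compared with odd ones there, with chip as a block. On each of these chips the mice at odd positions carried lower numbers than those at even positions. A difference by position therefore cannot be told apart from a difference between lower-numbered and higher-numbered mice. The probe that differed was the Ift20 probe ILMN_2847618. Its log2 value ran from 11.55 over 11.70 to 11.87 at the 12 odd positions and from 11.32 over 11.48 to 11.56 at the 12 even positions. All even positions lay below the median of the odd ones, and 11 of 12 lay below the lowest odd one. The means were 11.69 ± 0.11 (SD, n = 12) and 11.47 ± 0.07 (SD, n = 12), a difference of -0.22 (SE 0.04, limma adjusted p = 9.4e-04). It was -0.12 on chip 1, -0.27 on chip 2 and -0.26 on chip 4.

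**Figure D3:**
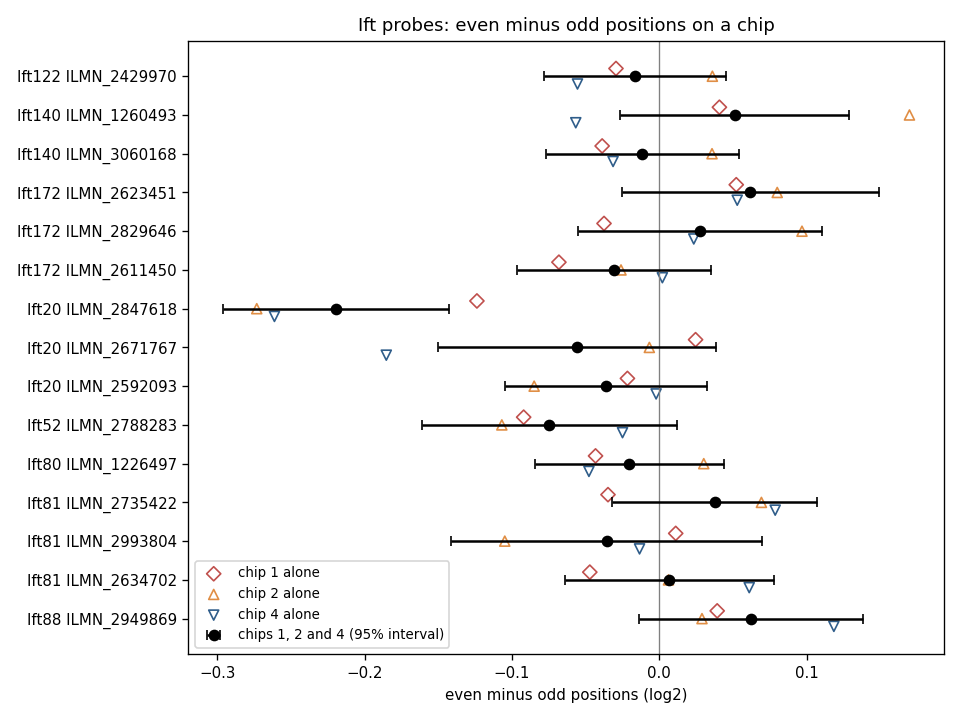
Log2 difference of even minus odd positions (horizontal axis) for the 15 tested Ift probes (rows). Black points with 95% intervals are over chips 1, 2 and 4 with chip as a block, and open marks are each chip alone. The Ift20 probe ILMN_2847618 stands at -0.22, below 0 on each of the 3 chips, and every other interval includes 0.

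This was 1 of 15 member probes called, where 3.89% of all probes were called. The other members lay between -0.07 (Ift52, SE 0.04) and 0.06 (Ift88, SE 0.04), with limma adjusted p-values of 0.248 to 0.925. The Ift20 probe with the lower values in ethanol-treated mice, ILMN_2592093, differed between even and odd positions by -0.04 (SE 0.03, limma adjusted p = 0.512, 95% interval -0.10 to 0.03). The third Ift20 probe, ILMN_2671767, differed by -0.06 (SE 0.05, limma adjusted p = 0.451, 95% interval -0.15 to 0.04). When arrays were scaled by their medians instead of by quantiles, the difference of ILMN_2847618 was -0.32 (limma adjusted p = 0.029), which missed an FDR below 1%, as every tested probe of the array did.

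Chips 1 and 2 both held ethanol-treated mice, and the comparison of the chips also stood apart from treatment. By limma, 0 of 15 member probes were called at an FDR below 1%, where 0.00982% of all probes were, and 2 had an unadjusted p below 0.05. Differences of chip 2 minus chip 1 ran from -0.11 (Ift140 ILMN_1260493, SE 0.05, limma adjusted p = 0.291) to 0.06 (Ift20 ILMN_2847618, SE 0.06, limma adjusted p = 0.714).

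Member probes shared little of their variation from mouse to mouse. Values were centred within the 8 sets of 4 arrays that share chip, treatment and odd or even position, and Pearson correlations were taken over the 32 arrays as a description. The Ift20 probes correlated at 0.22 (ILMN_2847618 with ILMN_2671767), -0.09 (ILMN_2847618 with ILMN_2592093) and -0.25 (ILMN_2671767 with ILMN_2592093). The median over the 10 pairs of member probes of the same gene was 0.12, beside 0.15 over all 2865 such pairs on the array. Over the 95 pairs of member probes of different genes it was -0.03, beside 0.00 over all pairs of probes. Among the genes most like ILMN_2847618 were 2310005E10Rik at 0.61, Ddx24 at 0.61, Arpp21 at 0.59 and Fbxw7 at 0.58. Those most like ILMN_2592093, a search added after its values were seen, were Ccdc126 at 0.68, Snrpa at 0.63, 1110001J03Rik at 0.63, Mpdu1 at 0.63 and Whsc2 at 0.62. Both sets come from the highest values of a search over the tested genes. Whether values this high exceed what so wide a search gives by chance was not tested.

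Other genes of the cilium were read from lists of 80 genes, of which 66 were on the array and 40 were tested. In the comparison of ethanol-treated mice with controls 2 of 40 were called at an FDR below 1%, 5.0%, where 9.82% of all tested genes were called. The median difference was 0.00 for the list genes and -0.01 for all tested genes. Kifap3, the accessory subunit of the kinesin-II motor of IFT-B, was higher in ethanol-treated mice by 0.18 (SE 0.05, limma adjusted p = 0.0068) for 1 of its 3 probes, and its other probes stood at 0.15 and 0.27 (limma adjusted p = 0.046 and 0.016). Arl3, a small GTPase that releases lipidated cargo in the cilium, was lower for 1 of its 2 probes, with a difference of -0.16 (SE 0.03, limma adjusted p = 8.4e-04), and its other probe stood at -0.11 (limma adjusted p = 0.055). On chip 3 the called probes stood at -0.02 and -0.10. With chip as a fixed block neither was called, where 0.137% of all probes were. Without control C66, the dimmest array, Kifap3 was no longer called (limma adjusted p = 0.016), and 5.55% of all probes were.

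**Figure D4:**
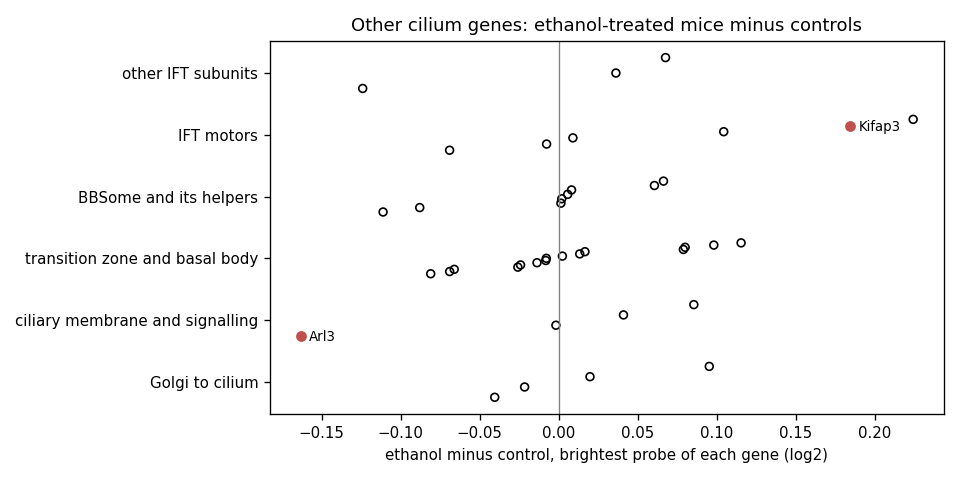
Log2 difference of ethanol-treated mice minus controls over all arrays (horizontal axis) for the brightest probe of each of the 40 tested cilium genes outside the family, by list (rows). Filled points are the 2 genes called at an FDR below 1%, Kifap3 at 0.18 and Arl3 at -0.16, and open points are the others.

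Of the other IFT subunits 3 were tested and 0 were called by limma. They were Rabl4, now Ift27, at -0.12 (SE 0.04, limma adjusted p = 0.033), Rabl5, now Ift22, at 0.04 (SE 0.06), and Cluap1 at 0.07 (SE 0.04). A gene now named Ift43, an IFT-A subunit listed as 1700019E19Rik, differed by -0.08 (SE 0.04, limma adjusted p = 0.144), and Ift46, listed as 1500035H01Rik, was not tested. Of the motor genes 1 of 6 was called, and of the ciliary membrane and its signalling 1 of 4. Of the BBSome, the coat that moves membrane proteins with IFT particles, 0 of 8 were called. For the transition zone and basal body it was 0 of 15, and for the route from the Golgi to the cilium 0 of 4. Over all tested genes the share called was 9.82%. With 3 to 15 tested genes a list, no difference between the lists is read from these counts.

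Between even and odd positions 4 of the 40 genes were called by their brightest probe, where 3.8% of all tested genes were. Here too, position coincided with lower or higher mouse number. Kif3a, a motor subunit of kinesin-II, was lower at even positions for 1 of its 2 probes, at -0.41 (limma adjusted p = 0.0020), while the other stood at 0.02 (limma adjusted p = 0.766). Also lower was Dync2li1, a light intermediate chain of dynein 2, at -0.13 (limma adjusted p = 0.0077). Cc2d2a, a transition zone gene, stood at -0.20 (limma adjusted p = 0.0044), and Rab11a, a GTPase of vesicles that supply the cilium, at 0.21 (limma adjusted p = 0.0087). The probes of Kifap3 that are not its brightest were higher at even positions, by 0.18 (limma adjusted p = 0.0087) and 0.30 (limma adjusted p = 0.0016), and the brightest stood at 0.03 (limma adjusted p = 0.688).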

How the data were processed

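The data are 1 array for the FCtx of each of 32 mice, and the labels tie each column to a mouse. The authors deposited intensities, the mean bead signal of each probe on a linear scale without normalization between arrays. They also deposited a detection p-value for each probe, and as other values the bead standard error and number of beads. The scanner software and background step are not given in the sources used here.

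A variance-stabilizing transform after the one in the Methods (lumi) was computed from the bead errors, and arrays were then quantile normalized (R 4.3.3). Values are on this log2-like scale. Probes detected at p below 0.01 on 24 arrays or more were tested, 10187 of 25697. limma 3.58.1 compared groups across all tested probes, with Benjamini-Hochberg adjustment over them, and a call is an FDR below 1%. A gene is given by its brightest tested probe and is called when any probe is. The steps were tested on simulated data. Tables and figures used Python 3.11.15, numpy 2.4.6, pandas 2.3.3 and matplotlib 3.10.9. The number of arrays limits the precision.

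By rule, all Ift probes are named, with the called IFT, motor and BBSome genes and the 5 genes most correlated with Ift20, of which 1 is not reported here. Arl3, Cc2d2a, Rab11a and the other IFT subunits were named after their values were seen. The members and lists were chosen with earlier results of these data known. Alternatives were the transform, background, normalization, detection filter, chip, position, array weights and left-out arrays. The labels do not tie arrays to batches of RNA extraction, which were not used here.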

Additional observations from a re-analysis of the deposited data

Results flagged for a closer look

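Within the 5 sets of arrays that share treatment and chip, 75 sets of values of the 15 tested probes were searched for an array far from its set, and 2 were found. Chance gives about 1 in 20 sets. The Ift172 probe ILMN_2623451 read 9.22 in mouse A45 of chip 2, where the median of the 8 ethanol-treated mice was 8.85, and the gap to the next mouse was 0.539 of the range. The Ift81 probe ILMN_2993804 read 9.71 in control C55 of chip 3, where the median of the 4 controls was 9.45, and the gap was 0.847 of the range.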

How the results depend on the processing

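No Ift probe that was called changed direction. For the main values, 97 alternatives stayed within the spread between arrays, on the same side of a test or within 1.5 times a count, 13 were lower counts or lost calls, 2 were higher counts and 2 moved by more than the spread. The difference of the Ift20 probe ILMN_2592093 over all arrays was -0.16 with chip as a fixed block, a fit in which chip 3 alone bears on treatment. That of ILMN_2847618 was -0.16 with chip and position together. Both are descriptions, since the family was selected on this comparison. The count of called Ift probes over all arrays, 1, was 0 with median scaling, with chip as a fixed block and with chip and position together. Of all tested probes, 8.23% were called in the main fit, and 0.726%, 0.137% and 0.0196% in these fits in turn. For chips 1 and 2 against chip 4 the count was 0 with median scaling. There 3.52% of all probes were called, against 11.8% in the main fit. Nothing is read from the lost calls. On chip 3 the count was 1 with log2 of the signal, the Ift122 probe, where 3.38% of all probes were called. Between even and odd positions the count was 0 with median scaling, where 0.0% of all probes were called and ILMN_2847618 stood at -0.32 (limma adjusted p = 0.029). The 2 called cilium genes outside the family were 1 with normexp background, with all probes, with chip as a fixed block and without control C66, and 0 with median scaling, with chip as a random block and with chip and position together. Of the probes in each fit, 7.53% were called with normexp background, 2.35% with all probes, 5.55% without control C66 and 0.707% with chip as a random block. The shares of the other fits are given above, and nothing is read from these counts. With chip as a fixed block the 1 called gene was Iqcb1, not Kifap3 or Arl3, and the difference of Kifap3 changed sign, to -0.019 (limma adjusted p = 0.925). In the main fit over all arrays, without chip as a block, 11 of the 40 list genes were called at an FDR below 10%. The share of all tested genes there was 28.9%. Of the other Ift probes, 19 values moved by more than the spread, with normexp background, log2 of the signal, chip as a fixed block or chip and position together. The cause was not tested for any of these. Leaving out each array of chip 3 in turn gave -0.17 to -0.14 for ILMN_2592093, 0.01 to 0.10 for ILMN_2847618 and 0 called Ift probes each time. The share of all probes called ran from 0.972% to 3.59%. Without control C66, over all arrays, the difference was -0.27 for ILMN_2592093 and -0.01 for ILMN_2847618. There 1 Ift probe was called, as were 5.55% of all probes.

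No paired analysis was possible because ethanol-treated mice and controls share no replicate number.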
